A study of Homo sapiens with 6 samples.

Results

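Guanylate-binding proteins (GBPs) are large GTPases of cell-autonomous immunity, and the 7 human GBP genes lie in a cluster on chromosome 1. They were followed here in cytokine-exposed EndoC-βH1 cells, a human beta cell line made from fetal pancreas with viral and telomerase genes. The members were chosen by gene symbol, GBP1 to GBP7, and all 7 were found in the deposited tables. The authors' assembly placed them in 6 loci of 61695 in the deposited count tables, because GBP2 and GBP7 were counted as a single locus, as were GBP6 and the pseudogene GBP1P1, and because GBP3 shared its locus with a Y RNA. Transcripts naming a member numbered 33 of 274669 in the deposited isoform table.

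The cytokine group comprised 3 libraries of cells kept for 24 h with IL-1β at 5, TNF-α at 10, IFN-γ at 50 and IL-17 at 100 ng/ml. The control group comprised 3 libraries of the same line with none of these cytokines. Before that, all cells attached over 24 h at 11 mM glucose, and poly(A) messenger RNA was sequenced from directional libraries. The control libraries are labelled as taken before exposure, whereas the extraction protocol describes cells left without cytokines for 24 h, so exposure and time in culture cannot be told apart. All libraries came from 1 transformed cell line, nothing in the labels ties a library to a separate culture, and p-values therefore measure the spread between these libraries only. The deposited tables give group values and 1 comparison, cytokine over control, with no value per library, so the spread is known only through the standard error (SE) of the authors' fit. Fewer cells and less RNA per cell cannot be told apart in such bulk RNA.

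GBP genes are known as targets of IFN-γ. The receptor activates JAK kinases, and the signal reaches promoters that hold a gamma-activated site (GAS) or an interferon-stimulated response element (ISRE), which the induced factor IRF1 binds. GBP proteins bind GTP, assemble into polymers and coat bacteria and pathogen-containing vacuoles. GBP1, GBP2 and GBP5 carry a lipid anchor added by prenylation, and the coat formed on bacteria recruits caspase-4, which cleaves gasdermin D and opens the membrane.

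The promoter table of RefSeq (build GRCh38.p14, 250 bases before to 50 bases after each start site) held 5 members, GBP1, GBP3, GBP4, GBP6 and GBP7. All 5 are shown, to set the 3 that hold an ISRE core beside GBP6 and GBP7, where neither search found a match. The ISRE core, searched as 2 copies of GAAA with any 2 bases between them, and the GAS, searched as TTCNNNGAA, were read on both strands, and matches are in capitals.
GBP1 (chr1:89065159-89065458, minus strand): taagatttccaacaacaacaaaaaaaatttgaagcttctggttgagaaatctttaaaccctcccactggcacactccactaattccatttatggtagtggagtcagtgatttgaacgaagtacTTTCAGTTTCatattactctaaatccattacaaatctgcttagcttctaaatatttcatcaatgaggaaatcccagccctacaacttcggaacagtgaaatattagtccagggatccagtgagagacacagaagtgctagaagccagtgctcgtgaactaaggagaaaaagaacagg
GBP3 (chr1:89022817-89023116, minus strand): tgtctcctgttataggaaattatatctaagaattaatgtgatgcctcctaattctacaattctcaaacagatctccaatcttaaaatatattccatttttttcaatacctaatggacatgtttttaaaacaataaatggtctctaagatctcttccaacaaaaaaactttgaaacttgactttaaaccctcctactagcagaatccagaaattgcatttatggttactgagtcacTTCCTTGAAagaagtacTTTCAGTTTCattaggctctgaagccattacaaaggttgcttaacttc
GBP4 (chr1:89198893-89199192, minus strand): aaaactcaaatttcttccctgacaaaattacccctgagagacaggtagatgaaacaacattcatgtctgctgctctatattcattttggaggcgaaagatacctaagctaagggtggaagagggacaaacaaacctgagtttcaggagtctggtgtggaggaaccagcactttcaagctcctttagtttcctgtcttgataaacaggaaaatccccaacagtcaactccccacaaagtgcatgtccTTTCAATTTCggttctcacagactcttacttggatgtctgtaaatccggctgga
GBP6 (chr1:89363809-89364108, plus strand): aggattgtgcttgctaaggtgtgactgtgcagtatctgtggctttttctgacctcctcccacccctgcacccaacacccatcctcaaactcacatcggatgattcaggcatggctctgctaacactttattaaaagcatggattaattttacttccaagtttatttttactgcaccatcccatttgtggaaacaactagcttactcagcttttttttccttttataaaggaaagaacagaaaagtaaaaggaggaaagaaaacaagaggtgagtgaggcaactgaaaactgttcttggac
GBP7 (chr1:89175954-89176253, minus strand): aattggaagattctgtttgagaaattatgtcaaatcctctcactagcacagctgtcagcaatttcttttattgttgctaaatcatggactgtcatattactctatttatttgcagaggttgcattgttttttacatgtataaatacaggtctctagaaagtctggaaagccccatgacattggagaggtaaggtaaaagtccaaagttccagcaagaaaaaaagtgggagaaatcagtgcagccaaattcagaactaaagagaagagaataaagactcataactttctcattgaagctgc

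The ISRE core was found in the windows of GBP1, GBP3 and GBP4, 3 of 5 members, against 3.57% of all 35116 promoters of that length. GBP1 and GBP3 shared the same match, TTTCAGTTTC, at bases -127 to -118 of GBP1 and at bases 3 to 12 of GBP3, counted from the RefSeq start site as 1. The match of GBP4, TTTCAATTTC, spanned bases -4 to 6. The GAS letters were found only in the window of GBP3, at bases -15 to -7, against 7.66% of all promoters, and overlapped no ISRE match. A site spelled with other letters is missed by this search, so the windows without a match, that of GBP1 among them, may still hold a GAS. A match describes the letters in this window and not the binding of a factor, and the count fell to 0 members with an ISRE core lengthened by a final C, which 0.795% of promoters hold, or with the stricter GAS letters TTCCNGGAA, which 1.15% hold.

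Every GBP locus rose steeply with cytokines. In the authors' deposited count table, 6 of 6 GBP loci were higher in cytokine-exposed cells at an adjusted p under 0.05 of their DESeq test, against 18.0% of all 30206 loci tested. At an adjusted p under 0.01 the count was again 6, against 15.3% of loci in the deposited tables. The deposited FPKM table called 5 of 6 higher, against 17.8% of its 21865 loci tested. The log2 fold changes of the deposited count table lay between 7.31 and 13.40 with a median of 11.12, against a median of 0.05 over all loci tested. A rise past the threshold of at least the smallest GBP fold was reached by 0.222% of tested loci in the deposited tables. The 6 loci together held 110614 normalized counts per library in cytokine-exposed cells and 74.1 in control cells, worked out from the deposited means and folds. That was 0.264% of all normalized counts in cytokine-exposed cells and 1.86e-04% in control cells of the deposited tables.

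GBP1 (89051882 to 89065360 on chromosome 1, hg38), the member that binds bacterial lipopolysaccharide and starts the coat, was the most abundant with cytokines. It had a mean of 65745 normalized counts in the cytokine group and 8.58 in the control group, from the authors' deposited count table. The deposited FPKM table, which corrects for transcript length, listed GBP1 at 1003 FPKM with cytokines and 0.0682 FPKM in control. GBP1 ranked 27 of 63707 loci by FPKM in cytokine-exposed cells and 25691 in control cells of the deposited table. That table lists some very abundant loci at 0 FPKM in both groups, among them the INS locus and CHGA, with 296413 normalized counts with cytokines. These were ranked below GBP1, so GBP1 may stand lower in both orders. Its log2 fold change was 12.90 ± 0.28 (SE) in the deposited count table, where the adjusted p was listed at 0, and 13.84 in the deposited FPKM table (Cuffdiff q = 0.000232).

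GBP5 (89256189 to 89272860), reported to promote the NLRP3 inflammasome and, like GBP2, to inhibit the protease furin, was the next most abundant. It had 17215 normalized counts with cytokines and 1.59 in control, from the deposited count table. The FPKM values in the deposited table were 132 with cytokines and 0.0119 in control. The log2 fold change of GBP5 was 13.40 ± 0.65 (SE) in the deposited count table, with an adjusted p of 2.97e-94 of the authors' DESeq test, and 13.43 in the deposited FPKM table (q = 0.000232).

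GBP4 (89181144 to 89198942), one of the GBPs found on bacteria coated by GBP1, had the lowest control mean of the family in the count table. Its means were 7360 normalized counts with cytokines and 1.27 in control, from the deposited count table. The log2 fold change was 12.50 ± 0.72 (SE) there, with an adjusted p of 8.42e-66 of the authors' DESeq test. The deposited FPKM table listed GBP4 at 33.0 FPKM with cytokines and 0.0134 FPKM in control, a log2 fold change of 11.27, and its q of 0.223 did not pass the threshold. The control means correspond to about 3.82 reads of GBP4 and 4.77 reads of GBP5 over all 3 control libraries, so the sizes of these folds rest on very few control reads. Each of these genes is overlapped by an annotated long noncoding RNA on the opposite strand, which for GBP4 covers the start site, and without the strand setting of the counting their reads cannot be told apart. The only other named locus in the assembled region of GBP5, RP4-620F22.2, was listed at 0 normalized counts and 0 FPKM in the deposited tables.

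The locus of GBP6 (89364059 to 89388160) and GBP1P1 (89407679 to 89424934) had 11644 normalized counts with cytokines and 13.7 in control, from the deposited count table. The deposited FPKM values of the locus were 57.7 with cytokines and 0.0493 in control. Its log2 fold change was 9.73 ± 0.22 (SE), with an adjusted p listed at 0 in the deposited count table, and 10.19 in the deposited FPKM table (q = 0.000232).

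GBP3 (89006679 to 89022894), a close relative of GBP1, was the most abundant member in control cells. Its means were 6130 normalized counts with cytokines and 33.1 in control, from the deposited count table. The deposited FPKM values were 53.6 with cytokines and 0.378 in control. The log2 fold change of GBP3 was 7.53 ± 0.14 (SE) in the deposited count table, with an adjusted p listed at 0, and 7.15 in the deposited FPKM table (q = 0.000232).

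The locus of GBP2 (89106132 to 89150456) and GBP7 (89131742 to 89176009) had the smallest log2 fold change in the deposited count table, and GBP3 had it in the deposited FPKM table. It had 2521 normalized counts with cytokines and 15.9 in control, from the deposited count table. The deposited FPKM values were 25.1 with cytokines and 0.155 in control. The log2 fold change was 7.31 ± 0.21 (SE) with an adjusted p of 2.79e-264 of the authors' DESeq test, and 7.34 in the deposited FPKM table (q = 0.000232).

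**Figure D1:**
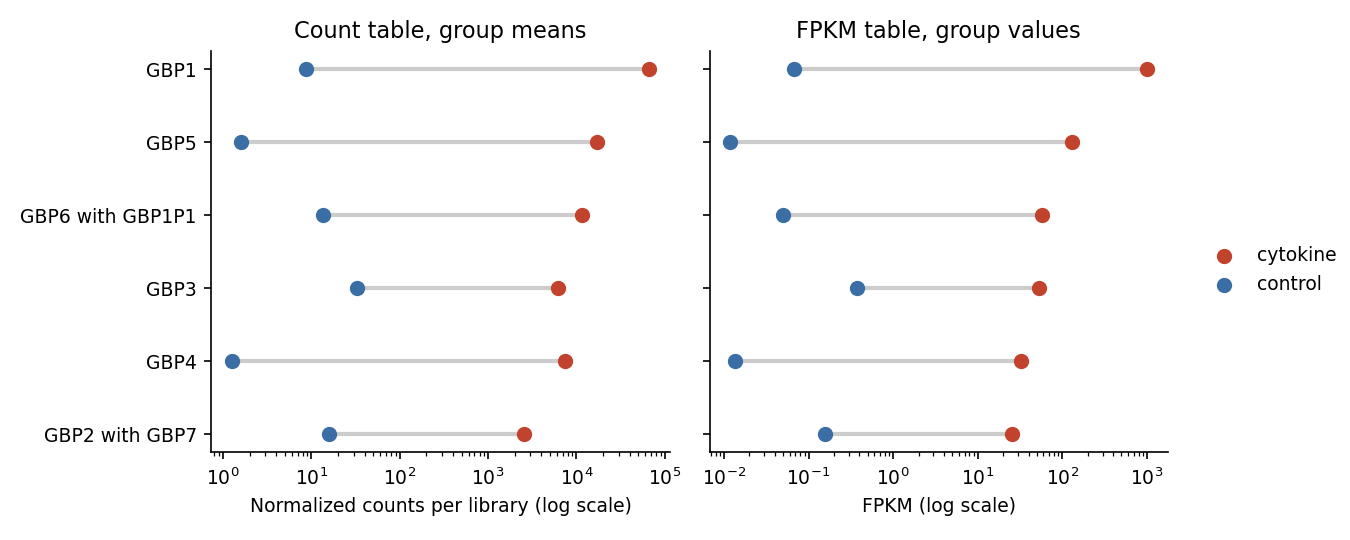
Group values of the 6 GBP loci in cytokine-exposed (red) and control (blue) cells, as mean normalized counts per library (left) and FPKM (right), each on a log axis and joined by a grey line. Every red point lies far right of its blue point, and GBP1 reaches 65745 normalized counts and 1003 FPKM with cytokines.

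The order of the folds was only partly resolved. GBP5, GBP1 and GBP4 did not differ beyond their errors in the deposited count table: the difference in log2 fold change was 0.50 between GBP5 and GBP1 (95% interval -0.88 to 1.88) and 0.40 between GBP1 and GBP4 (-1.11 to 1.92), taking the deposited SEs as independent. The deposited FPKM table, which gives no SE, set GBP4 further apart, 2.58 below GBP1 and 2.16 below GBP5 on the log2 scale. GBP4 exceeded the GBP6 and GBP1P1 locus by 2.76 (1.28 to 4.24) on the log2 scale of the deposited count table. The GBP6 and GBP1P1 locus exceeded GBP3 by 2.2 (1.68 to 2.72), and GBP3 and the GBP2 and GBP7 locus differed by 0.22 (-0.28 to 0.72), in the deposited count table. Of 15 pairs of loci, 11 had an interval that left out 0, and 2 of the 15 had the other order in the deposited FPKM table. These were GBP5 with GBP1, and GBP3 with the GBP2 and GBP7 locus.

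**Figure D2:**
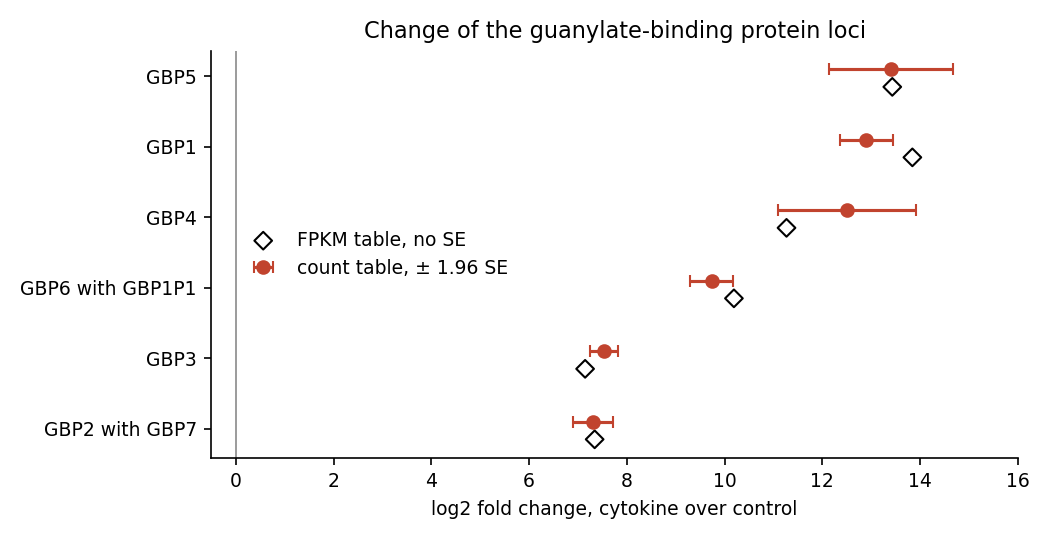
Log2 fold change, cytokine over control, of each GBP locus in the count table (red points, bars of 95% intervals) and in the FPKM table (open diamonds, no SE given). GBP5, GBP1 and GBP4 lie between 11.27 and 13.84 in both tables, and GBP3 and the GBP2 and GBP7 locus between 7.15 and 7.53.

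The make-up of the family differed between the groups. GBP1 held 76.9% of the family's FPKM in cytokine-exposed cells and 10.1% in control cells of the deposited FPKM table. GBP3 held 4.11% with cytokines and 56.0% in control, and the GBP2 and GBP7 locus held 1.93% with cytokines and 22.9% in control, in the deposited table. GBP5 held 10.1% with cytokines and 1.77% in control of the deposited values. GBP1 exceeded GBP5 by 7.60 times in FPKM and by 3.82 times in normalized counts in cytokine-exposed cells, so the lead of GBP1 depended on the measure. Counts per FPKM in the cytokine group ranged from 65.6 for GBP1 to 223 for GBP4 in the deposited tables.

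The isoform table separated the genes that share a locus. The single GBP7 transcript was listed at 0.951 FPKM with cytokines and 0.117 FPKM in control, 8.11-fold higher, and passed the threshold in the deposited table (Cuffdiff q = 0.000833). The 4 named GBP2 transcripts summed to 17.2 FPKM with cytokines and 0.0281 FPKM in control in the deposited isoform table, a ratio of 613 with no test of the sum. GBP7 thus made up 3.78% of the locus with cytokines and 75.7% in control in the deposited table, and its ratio was the smallest among the transcript sums of the 7 members. Of the stretches of 50 bases of the GBP7 transcript, 24.1% also occurred in deposited GBP2 transcripts (GENCODE release 44 sequences), so the split between these genes is uncertain.

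GBP6 itself was listed at 4.35 FPKM with cytokines and 0.0182 FPKM in control in the deposited isoform table, a ratio of 240, with a q of 0.0656 that did not pass the threshold. It made up 7.54% of its locus with cytokines and 36.8% in control in the deposited table. The 2 GBP1P1 transcripts, of a noncoding relative of GBP1, summed to 13.6 FPKM with cytokines and 0.00377 FPKM in control in the deposited table, where Cuffdiff tested 1 of them and it did not pass the threshold. The larger part of the locus with cytokines, 68.8% of its FPKM, belonged to 13 assembled transcripts without a gene name in the deposited table. The value of the joint locus therefore rests mainly on transcripts that the deposited table assigns to neither gene. Whether they are unannotated forms of GBP6 or GBP1P1 was not tested.

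Among the 33 transcripts naming a member, 29 were listed above 0 FPKM with cytokines and 17 in control in the deposited isoform table. Of the 25 that Cuffdiff tested, 3 were higher at q under 0.05, the annotated coding transcripts of GBP1, GBP3 and GBP7, against 5.17% of all 95649 transcripts tested. The coding GBP1 transcript ENST00000370473 was listed at 910 FPKM with cytokines and 0.0315 FPKM in control in the deposited table (q = 0.000833). The coding GBP3 transcript ENST00000370481 was listed at 35.0 FPKM with cytokines and 0.133 FPKM in control in the deposited table (q = 0.00626). The coding transcripts of GBP2, GBP4 and GBP5, with q of 0.365, 0.658 and 0.527 in the deposited isoform table, stood at 12.6, 17.0 and 37.1 FPKM with cytokines.

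The share of annotated coding transcripts differed widely between loci in cytokine-exposed cells. Coding transcripts made up 90.7% of the GBP1 locus, 68.3% of GBP3, 53.9% of GBP2 and GBP7, 51.6% of GBP4 and 29.1% of GBP5 in the deposited isoform table. The other 7 named GBP1 transcripts are annotated as retained introns, and together they held 8.38% of the GBP1 locus with cytokines in the deposited table. At GBP5, 1 assembled transcript without a gene name was listed at 66.3 FPKM with cytokines and 1.67e-05 FPKM in control, 50.2% of the locus with cytokines, with a q of 0.639 in the deposited table. At GBP4, 1 assembled transcript without a name held 43.2% of the locus with cytokines in the deposited table. The GBP2 transcript annotated for nonsense-mediated decay was listed at 4.40 FPKM with cytokines in the deposited table, 17.5% of its locus. The most abundant of several such GBP3 transcripts was listed at 6.30 FPKM with cytokines, 11.7% of its locus.

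**Figure D3:**
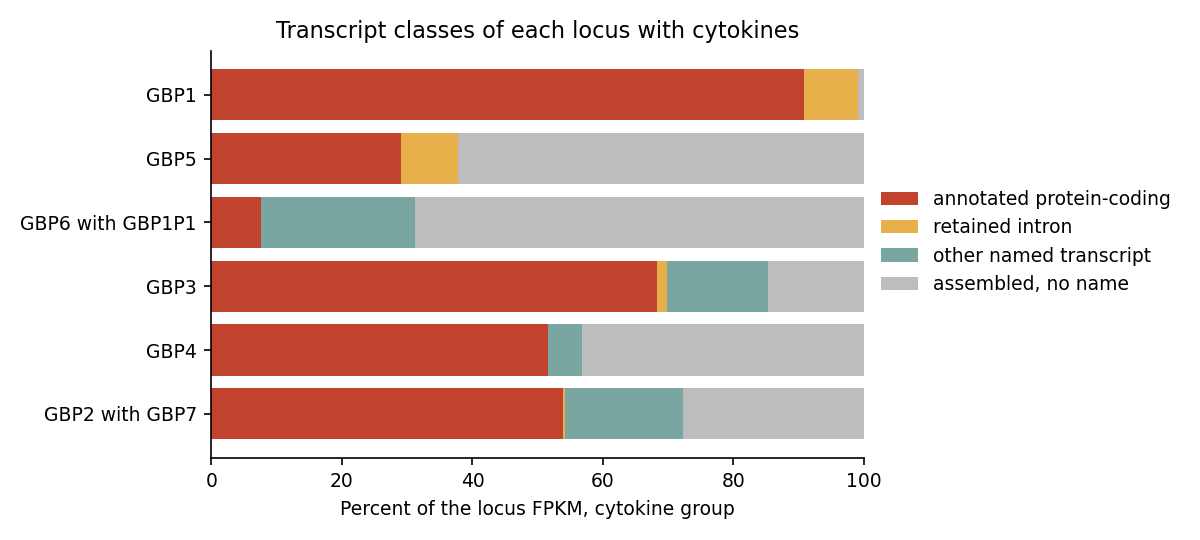
Share of each locus's FPKM in the cytokine group, by transcript class of GENCODE release 44 or as assembled without a gene name. Annotated coding transcripts make up 90.7% of the GBP1 locus, against 29.1% of GBP5 and 7.54% of the GBP6 and GBP1P1 locus.

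Reads can be shared between these related genes. Of the stretches of 50 bases in the coding GBP1 transcript, 11.4% also occurred in GBP1P1 and 3.28% in a deposited GBP3 transcript. The share found in any other GBP gene or GBP1P1 was 4.18% for GBP3, 1.66% for GBP2, 0.312% for GBP4 and 0 for GBP5 and GBP6. The authors' handling of reads with several matches is not stated in these sources.

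Other loci assembled in the same regions were also called higher, mostly at low levels. The 5 assembled regions that hold the GBP loci held 9 further loci in the deposited tables. Of these, 7 were tested in the deposited count tables and 7 were higher at an adjusted p under 0.05 of the authors' DESeq test, against 18.0% of all loci, but 4 of them had control means below 1 normalized count. The deposited FPKM table tested 6 and called 2 higher, against 17.8% of all 21865 loci it tested. The most abundant, singled out with PTGES3P1 after their values were seen, was a locus with no gene name, MSTRG.1765, in the same region as GBP2 and GBP7 (89067825 to 89179703). It had 2817 normalized counts with cytokines and 307 in control in the deposited table and rose by 3.20 ± 0.06 (SE) on the log2 scale. The deposited FPKM table listed it at 96.2 FPKM with cytokines and 10.7 FPKM in control (q = 0.000232). In control cells its level was above that of all 6 GBP loci together, which summed to 0.676 FPKM in the deposited table. PTGES3P1, a pseudogene in the same region, had 183 normalized counts with cytokines and 38.0 in control in the deposited table and rose by 2.27 ± 0.21 (SE) on the log2 scale.

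Genes flanking the cluster changed far less than the GBP loci. Of 6 loci in the list of neighbours, 4 were higher and 1 lower in the deposited count table, against 18.0% and 19.7% of all loci. The GBP6 and GBP1P1 locus is on this list and is among the higher ones. On the GBP3 side, the locus of CCBL2 (KYAT3), an enzyme of kynurenine metabolism, and RBMXL1 rose by 0.66 ± 0.03 (log2 ± SE), GTF2B, a general transcription factor, by 0.82 ± 0.06, and PKN2, a protein kinase, by 0.41 ± 0.04 in the deposited count table. On the GBP6 side, the joint locus of LRRC8B, LRRC8C and LRRC8D, subunits of volume-regulated anion channels, fell by 0.24 ± 0.03 in the deposited count table. ZNF326 stood at 0.05 ± 0.04 in the deposited count table, not past the threshold.

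**Figure D4:**
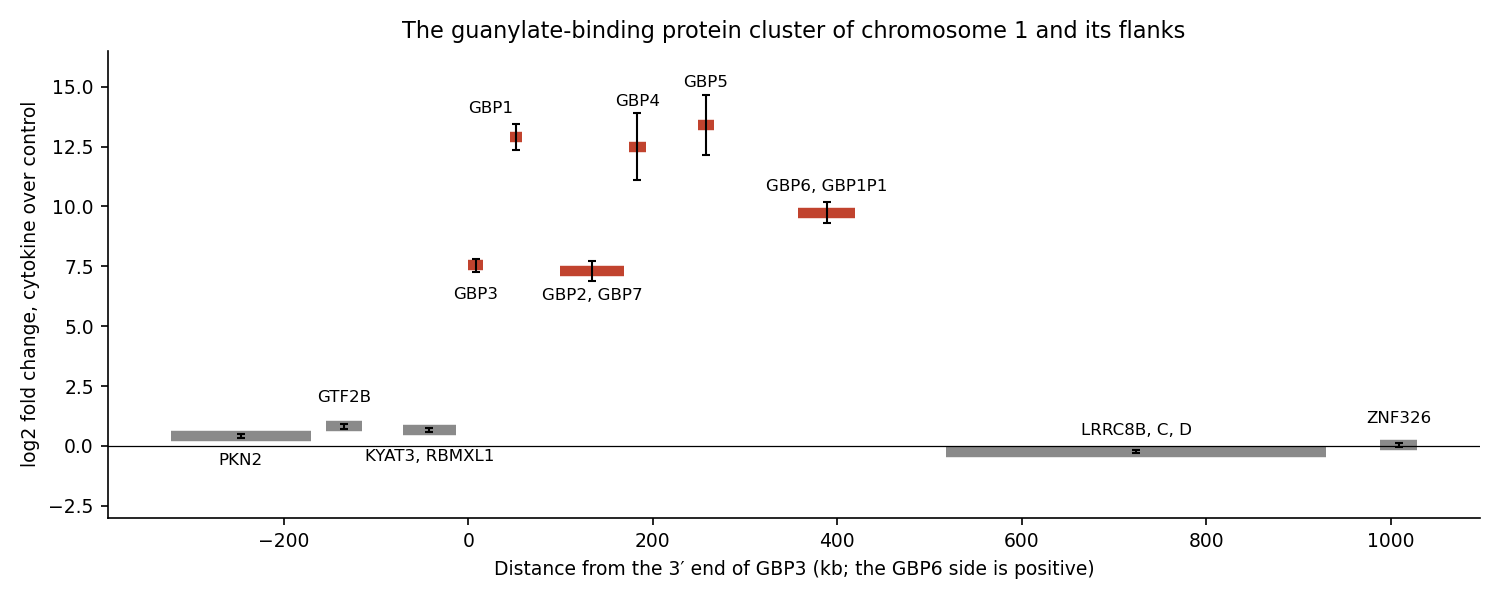
Log2 fold change, cytokine over control, of GBP loci (red) and flanking genes (grey) against distance along chromosome 1, with bars over each gene's extent and vertical lines of 95% intervals. The GBP loci stand between 7.31 and 13.40, and the flanking loci between -0.24 and 0.82.

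Most genes on the list of IFN-γ signalling, which holds both carriers and inhibitors of the signal, were higher with cytokines. Of 12 loci, 11 were higher and 0 lower in the authors' deposited count table, against 18.0% higher and 19.7% lower of all loci, and the list's median log2 fold change was 2.36 against 0.05 over all loci. The deposited FPKM table likewise called 11 higher and 0 lower, and 0 were lower at an unadjusted DESeq p under 0.05. The factor IRF1 had 70366 normalized counts with cytokines and 692 in control in the deposited table and rose by 6.67 ± 0.03 (SE) on the log2 scale, the largest change of the list. BATF2, an AP-1 family factor, rose by 5.32 ± 0.07 and SOCS1, a feedback inhibitor of JAK kinases, by 6.06 ± 0.12 (log2 ± SE) in the deposited table. JAK1 rose by 0.25 ± 0.03, and the receptor chain IFNGR1 stood at -0.08 ± 0.05 in the deposited table, short of the threshold. All 12 log2 fold changes lay below those of the 6 GBP loci.

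Partners and regulators of GBP proteins were also higher. Of 9 tested, 9 were higher in the deposited count table and 7 in the deposited FPKM table, against 18.0% and 17.8% of all loci tested. Their median log2 fold change in the deposited count table was 1.44, and SFN, a 14-3-3 protein, had no adjusted p. APOL3, an apolipoprotein L that acts with GBPs on bacterial membranes, had 903 normalized counts with cytokines and 0.636 in control in the deposited table. That control level is below a floor of 3 reads for the 3 control libraries together, and its FPKM q of 0.0907 did not pass the threshold. UBE2L6 and ISG15, of the ISG15 conjugation pathway, rose by 11.04 ± 0.48 and 7.69 ± 0.25 (log2 ± SE) in the deposited table. PIM1, a kinase that phosphorylates GBP1 and keeps it inactive, rose by 0.64 ± 0.04 in the deposited table. FURIN, the protease inhibited by GBP2 and GBP5, rose by 0.17 ± 0.02 to 9291 normalized counts, against 8263 in control, in the deposited table. DYNLL1 had the smallest change, 0.09 ± 0.03, in the deposited count table, and its FPKM q of 0.544 did not pass.

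Most tested genes of the lytic death pathway downstream of GBP proteins rose. Of 7 tested loci, 5 were higher and 0 lower in the deposited count table, against 18.0% higher and 19.7% lower of all loci, and 0 were lower at an unadjusted DESeq p under 0.05 or in the deposited FPKM table. The list's median log2 fold change was 2.5 in the deposited count table. CASP4, the caspase that senses lipopolysaccharide on GBP coats, had 3327 normalized counts with cytokines and 264 in control in the deposited table, and its log2 fold change was 3.66 ± 0.07 (SE). GSDMD, which forms the membrane pore, had 2507 with cytokines and 160 in control in the deposited table, rising by 3.97 ± 0.08 (SE) on the log2 scale. CASP1, the inflammasome caspase, was called higher in both deposited tables, with 27.3 normalized counts with cytokines and 0.343 in control, and no fold is given because that control level is below the same floor. NINJ1, which breaks the membrane late in lytic death, rose by 0.58 ± 0.09 in the deposited table. The cytokine genes IL18 (-0.94 ± 0.55) and IL1B (-0.96 ± 1.25) were not past the threshold, and the sensors AIM2 and NLRP3 and the caspase CASP5 had too few reads for an adjusted p in the deposited table.

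Genes on the list of interferon-inducible or related GTPases, which also holds the pseudogene GVINP1 and the ATPase RNF213, went in both directions. Of 9 loci, 4 were higher and 3 lower in the deposited count table, against 18.0% and 19.7% of all loci. Their median log2 fold change, 0.27, was the value of IRGM, which had very few reads and an SE of 1.22 in the deposited table. The antiviral GTPase MX1 had 8005 normalized counts with cytokines and 120 in control in the deposited table and rose by 6.06 ± 0.08 (SE) on the log2 scale. GVINP1, related to the very large inducible GTPases, rose by 4.89 ± 0.37, RNF213, also a ubiquitin ligase, by 3.49 ± 0.02 and MX2 by 1.29 ± 0.06 (log2 ± SE) in the deposited table. The atlastins ATL1, ATL2 and ATL3, which fuse membranes of the endoplasmic reticulum and are structural relatives of GBPs, fell by 0.39 ± 0.08, 0.40 ± 0.05 and 0.20 ± 0.03 in the deposited table. IRGM stood at 2.70 normalized counts with cytokines and 2.24 in control, and IRGQ, counted with XRCC1, at a log2 fold change of 0.00 ± 0.03 in the deposited table, and neither passed.

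Enzymes that add and trim the lipid anchor of prenylated proteins changed little. Of 6 loci, 2 were higher and 3 lower in the deposited count table, against 18.0% and 19.7% of all loci, and their median log2 fold change was -0.11. The subunits of farnesyltransferase, FNTA and FNTB, rose by 0.12 ± 0.03 and 0.39 ± 0.04 (log2 ± SE) in the deposited table, but each shared a locus with other genes and neither passed in the deposited FPKM table (q = 0.137 and 0.128). ICMT, the methyltransferase that completes processing, fell by 0.65 ± 0.03, the protease RCE1, counted with C11orf80, by 0.41 ± 0.04 and ZMPSTE24 by 0.20 ± 0.04 in the deposited table. PGGT1B, a subunit of the enzyme that adds the longer anchor of GBP2 and GBP5, stood at -0.02 ± 0.05 in the deposited table and did not pass.

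**Figure D5:**
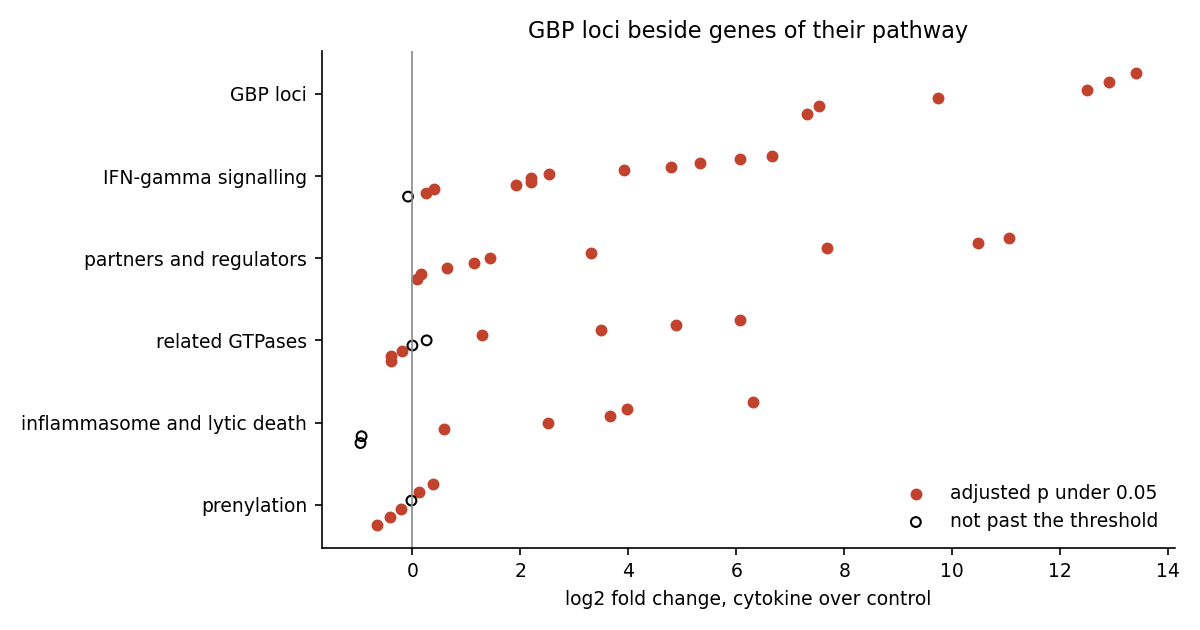
Log2 fold change, cytokine over control, of the GBP loci and of the tested loci of each pathway list in the count table, with filled points past an adjusted p of 0.05 and open points not. The GBP loci span 7.31 to 13.40 and the IFN-γ signalling loci -0.08 to 6.67, and the points of APOL3 and CASP1 are fitted values against almost no control reads.

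Outside the GBP loci, the 5 named loci nearest to GBP1 in control and cytokine level were CXCL10, RARRES3, CTSS, the joint locus of HLA-B and HLA-C, and PSMB9 with PSMB8-AS1. Likeness was the Euclidean distance between 2 group means on the scale log2(normalized counts + 1) of the deposited count table, and the distances were 2.01, 2.49, 2.56, 2.58 and 2.75. The closest, the chemokine CXCL10, had a higher level with cytokines, 245439 normalized counts, and a lower one in control, 5.09, than GBP1 in the deposited table.

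The libraries held a mean of 40881975 normalized counts in the deposited tables. Beta cell markers were present in both groups, with 16950 normalized counts of PDX1 with cytokines and 17183 in control in the deposited table. Of the 12 beta cell markers, 3 were higher, 6 lower and 3 short of the threshold in the deposited table, against 18.0% higher and 19.7% lower of all loci. Some of these values are shared with other genes, since INS was counted in a locus of 7 genes and IAPP in a locus of 6. MAFA, counted alone, fell by 1.63 ± 0.10 (log2 ± SE). GBP genes are also abundant in activated macrophages, so 9 leukocyte and macrophage markers were read beside them. None of these was higher with cytokines, 2 were lower, 4 did not pass and 3 had no adjusted p in the deposited count tables, against 18.0% higher and 19.7% lower of all loci. The lower ones were CD68, whose value is that of a locus of 9 genes, and AIF1, at 12.4 normalized counts with cytokines and 32.9 in control. At an unadjusted DESeq p under 0.05, and in the deposited FPKM table, 0 were higher. The 7 markers counted in loci of their own summed to 93.6 normalized counts with cytokines and 130 in control in the deposited tables, and PTPRC, the defining leukocyte marker, stood at 0.657 with cytokines and 2.71 in control. Endothelial markers summed to 6.42 normalized counts with cytokines and 3.94 in control, in the deposited tables, and 0 passed in DESeq, at an unadjusted DESeq p under 0.05 or in Cuffdiff. Of 5 fibroblast markers, COL1A1 was higher in the deposited table, at 1394 normalized counts with cytokines and 532 in control, 2 did not pass and 2 had no adjusted p. The part of COL1A1 in the results was not tested.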

How the data were processed

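EndoC-βH1 libraries, 3 with and 3 without cytokines, were processed by the authors on build hg38. The submitters' processing notes name STAR 2.5.2b and StringTie, Cuffdiff 2.2.1, DESeq, FastQC 0.10.1 and bcl2fastq, without their order. The counter, its strand handling and the gene annotation were not given in the sources used here. Normalized counts, the signal the authors deposited, are averages of all 6 libraries after division by size factors. The deposited log2 values are cytokine-over-control changes with the SE of the authors' fit. The score in the deposited tables is the test statistic of each tool and was not used. The p-values, adjusted p-values and q-values come from the DESeq and Cuffdiff tests the authors deposited, and an adjusted p listed at 0 is below what the table can hold. The FPKM values are 1 value per group of the authors' Cuffdiff run, per the file headers, with 5e-05 as the smallest p.

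From these, group means were computed by splitting the overall mean by the fold change, with equal groups of 3. The arithmetic of this step and of the re-centring was checked on simulated counts. There the folds were exact ratios of group means, so the check does not show how well fitted folds give back low control means. Intervals of 95% were taken from the deposited SE. A floor of 3 reads for all control libraries together, 1 normalized count per library, was used, and no fold is given for a gene whose control level is below it. All GBP loci had control means above it. A call is an adjusted p or q under 0.05 over all features. Loci of lists were found by symbol or older symbol, and where a locus held several genes its value belongs to all. Every member and any gene of the fixed lists could be named, with the largest, the smallest, the lower and the not passing ones first, and so could the 5 loci nearest to the most abundant member, other members left out. Transcript classes, coordinates and 50-base stretches came from GENCODE release 44 on hg38, where all 33 named member transcripts matched. Promoters came from RefSeq (GRCh38.p14). A planned comparison of protein sequences was not run. The value of 1 listed gene is not reported here. The members, lists and tests were chosen with earlier results of these data known. Python 3.11.15, pandas 2.3.3, numpy 2.4.6 and matplotlib 3.10.9 were used.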

Additional observations from a re-analysis of the deposited data

How the results depend on the processing

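Of 88 alternative values for 40 results, 83 kept their direction and call, a count within 1.5 times, or a share within 1 percentage point, but 19 of the 88 could not move, because all GBP control means lie above the floor, isoforms sum to their gene, and GBP loci pass a minimum mean through the cytokine group. GBP4 kept its direction in the deposited FPKM table, at a log2 fold change of 11.27, but not its call (q = 0.223). The count of GBP loci called was 3 with loci of a single symbol, since GBP3 with Y RNA and both other joint loci drop out, 5 with the FPKM table and 6 at a threshold of 0.01. The number of prenylation loci higher was 0 in the FPKM table. Promoter matches fell to 0 for the ISRE and to 0 for the GAS with longer or stricter letters. Re-centring moved log2 fold changes by 0.06, and the share of all calls that were higher was 54.7% re-centred and 47.8% as deposited, with 6 of 6 GBP loci called. No paired analysis was possible because the deposited tables hold no value per library, and leaving out a library could not be run for the same reason. With about 3.82 to 99.2 control reads per GBP locus over the group, depth limits the size of each fold and not its direction.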
